A study of Saccharomyces cerevisiae with 6 samples.

Results

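Chromosome III of budding yeast is described here by the 20 bp bins at which Rec8 cleavage differed between ctf19-9A and WT diploids. Its members were taken by position alone, as every listed bin on III, and numbered 392 of 14224 on all 16 chromosomes. Rec8 was mapped by ChEC-seq, in which the protein is fused to micrococcal nuclease (MNase), calcium starts cleavage of the DNA next to it, and the released fragments are sequenced. The ctf19-9A cultures (n = 3) carried the ctf19-9A allele, and the WT cultures (n = 3) the unchanged CTF19 gene. All were diploids from different zygotes with the fusion Rec8-3xFLAG-MNase and the deletion ndt80-delta. They therefore lacked NDT80, the transcription factor gene needed to leave meiotic prophase I, and this arrest and the tagged Rec8 were shared by both genotypes. Cells passed about 16 h in YP acetate and 4.5 h in 1% potassium acetate before 5 min with 2 mM CaCl2. The strain background is labelled X and Y without further explanation.

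Cohesin is the ring complex that holds sister chromatids together, and Rec8 is its meiotic kleisin, the subunit that closes the ring and shapes the chromosome axis. Ctf19, a protein of the inner kinetochore, brings the cohesin loader to centromeres once its N-terminal tail is phosphorylated. From there cohesin spreads over the flanking pericentromere, and on the arms it gathers where transcription units converge. Chromosome III is one of the short chromosomes and carries the mating-type locus MAT on its right arm, with the silent copies HML and HMR toward its 2 ends.

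The data were the authors' own comparison of the genotypes, in which every listed bin had passed a false discovery rate of 0.05. It holds no value for a single sample, so neither the spread between cultures nor the depth of a library can be shown, and no test between samples was possible here. The table does not name the genotype on top of its log2 ratio. From the design and the known role of Ctf19 it is likely ctf19-9A, with WT below, and a negative value is then less Rec8 cleavage in ctf19-9A. With the sign turned, every direction below swaps. Standard errors (SE) are those implied by each bin's fold change and p-value. Distances are measured from the middle of the gap between the innermost genes of both arms (114025 to 115684 on build R64), within which the centromere lies.

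On chromosome III all negative bins lay within 11.3 kb of the centromere, in 5 groups on the left that held 94 of the 107 and 2 on the right, and positive bins lay at the centromere, along the arms, most of them on the right, and at both ends. Negative bins numbered 107 and covered 2.14 kb, with a median log2 fold change of -0.60 (quartiles -0.66 and -0.56, median SE 0.19). Positive bins numbered 285 and covered 5.7 kb, with a median of 0.57 (quartiles 0.50 and 0.65, median SE 0.17). Over the whole series 9.18% of the bins that entered the adjustment were listed, 3.6% as negative and 5.58% as positive, out of 154927 as implied by the table. How many of these lay on III is not known, but listed bins covered 2.48% of its length, against 2.36% of the other chromosomes. The changes of III were of moderate size, and no bin of either sign reached a log2 size of 1.

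**Figure D1:**
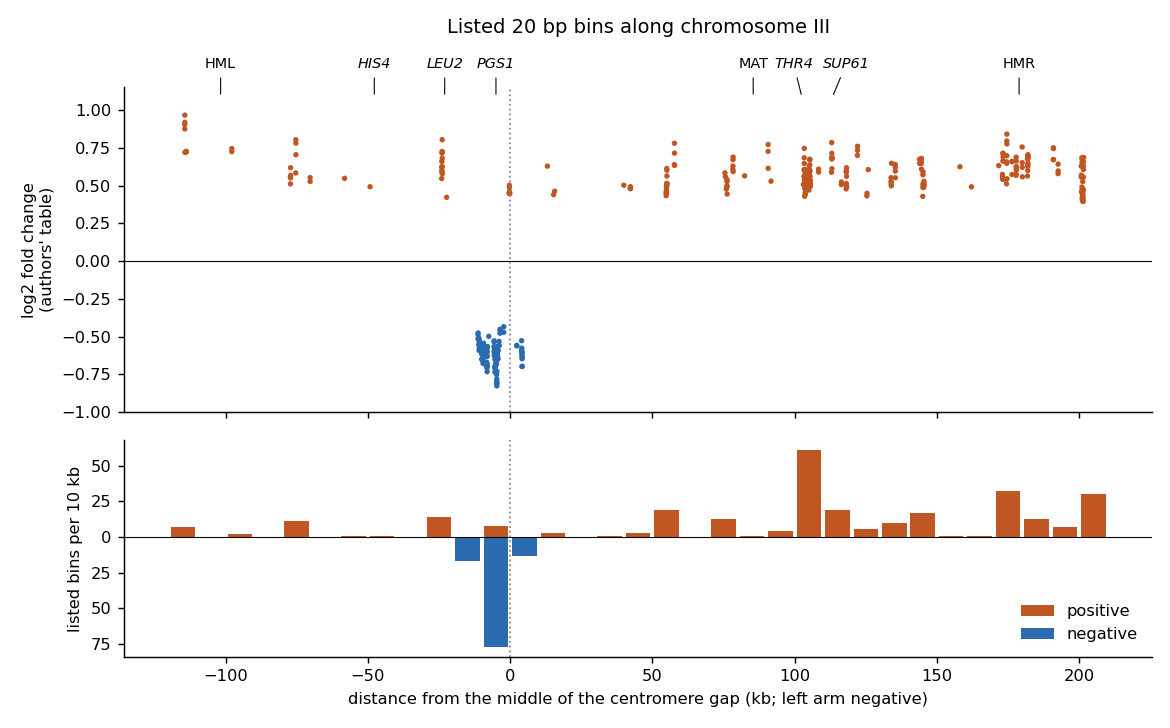
Log2 fold change of each listed bin of chromosome III (top, 1 point per bin) and number of listed bins per 10 kb (bottom, positive upward, negative downward) by distance from the middle of the centromere gap in kb. Negative bins (blue) reach from 11.3 kb on the left to 4.30 kb on the right, and the tallest positive window, 100 to 110 kb on the right arm, holds 61 bins.

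Left of the centromere, 94 negative bins ran through 6 genes and stopped 11.3 kb out. PGS1, which encodes the phosphatidylglycerolphosphate synthase of mitochondria, held 39 of them, spread from 6.74% to 98.7% of its length, with a median of -0.63. The authors' deposited table gave the lowest value of the chromosome in this gene, past its middle (110161 to 110180; log2 fold change -0.83, SE 0.20, adjusted p 0.00154). That bin lay within a run of 10 touching bins (110041 to 110240), whose values in the authors' deposited table began at -0.59 and stayed at or below -0.66 in the other bins of the run. A second run in PGS1, of 11 bins, had a median of -0.70 (109481 to 109700), and another, of 6 bins, a median of -0.58 (109201 to 109320). The dip in this gene was therefore not even, and shorter runs and single bins lay between and beyond these runs.

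STP22, for a subunit of the ESCRT-I sorting complex, had the longest run of touching negative bins on the chromosome, 16 bins over 320 bp (106561 to 106880). Its 15 bins inside the gene lay in the first 24.5% of the reading frame and had a median of -0.67. The smallest adjusted p there in the authors' deposited table belonged to a value of -0.73 (SE 0.20, adjusted p 0.00712). ILV6, for the regulatory subunit of acetolactate synthase in branched-chain amino acid synthesis, held 17 bins with a median of -0.60, and reached down to -0.68 in the authors' deposited table. Of its 3 runs of 5 bins, the middle one had the lowest median, -0.65 (105321 to 105420). SGF29, for a histone-binding subunit of the SAGA complex, was the outermost gene reached, with 12 bins, a median of -0.52 and a range of -0.59 to -0.48 in the authors' deposited table. The medians of PGS1 and STP22 were thus farther from 0 than that of SGF29, by less than the median SE of a single bin, 0.19.

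Closer to the centromere than PGS1 the left side held little. YCL002C had 7 bins with a median of -0.53, and the 2 bins between RER1, for a protein that returns others from the Golgi to the endoplasmic reticulum, and YCL001W-A were the innermost. The nearer of these stood at -0.43 in the authors' deposited table (112621 to 112640; SE 0.15, adjusted p 0.0377), 2.22 kb from the middle of the gap. RER1 itself held none. Farther out, between STP22 and PGS1, VMA9, for a subunit of the vacuolar proton pump, held 1 bin of -0.50 in the authors' deposited table. LDB16 and the snoRNA gene SNR43, also between them, held none. At a false discovery rate under 0.01, 16 negative bins were left on III, 9 in PGS1 and 7 in STP22, and 63 positive bins. Of all adjusted bins 3.31% met that rate, 2.28% with a negative and 1.03% with a positive sign.

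Right of the centromere only 13 negative bins were listed, at 2 places, and the farthest lay 4.30 kb out. The first place was the intergenic sequence between YCR001W and CDC10, a septin gene, with 2 bins of which the inner one was -0.56 in the authors' deposited table (117181 to 117200; SE 0.18, adjusted p 0.0351). The second was MRPL32, for a protein of the large mitochondrial ribosomal subunit, which held 11 bins between 49.0% and 96.1% of its length with a median of -0.61. Its lowest bin in the authors' deposited table was -0.70 (119021 to 119040; SE 0.21, adjusted p 0.0199). The median of all 13 bins was -0.61, against -0.60 on the left, and the median SE of a single bin on the right was 0.20. Only bins that passed the threshold enter these medians, so their likeness does not show an equal change on both sides. The numbers of bins, 13 and 94, were far apart. None of the 13 met a false discovery rate of 0.01. Farther right, YCP4, CIT2, for the peroxisomal citrate synthase, and YCR006C held no listed bin, and whether their bins were tested is unknown.

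**Figure D2:**
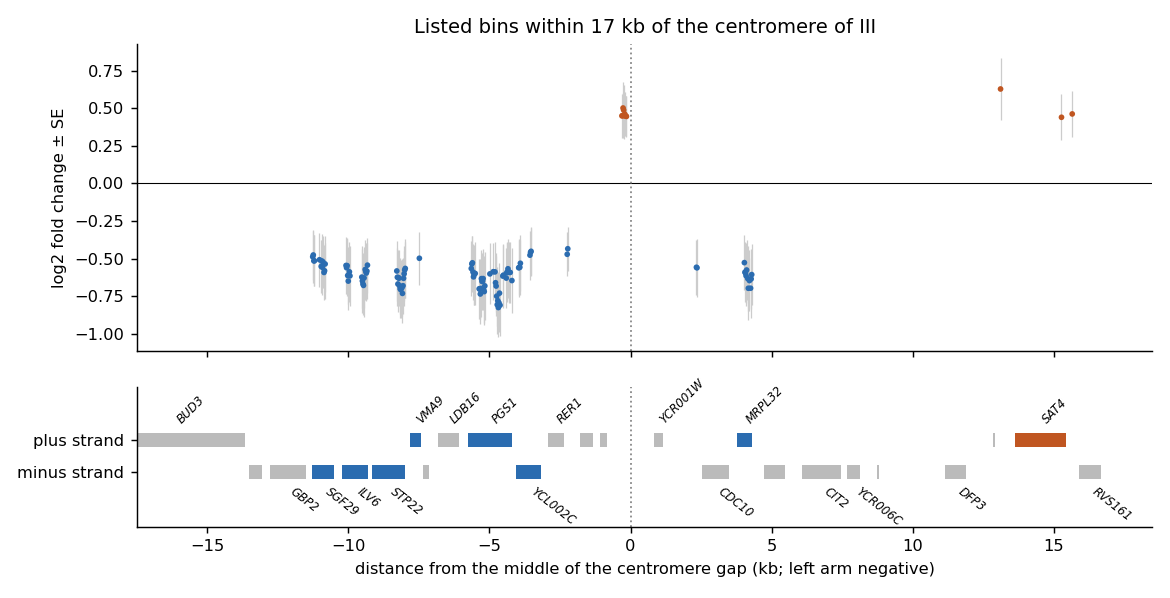
Listed bins within 17 kb of the middle of the centromere gap of III, with the log2 fold change and its implied SE (top), and the annotated genes by strand (bottom), coloured blue or orange where they hold a negative or positive bin and grey where they hold none. On the left, negative bins lie in parts of PGS1, STP22, ILV6, SGF29, YCL002C and VMA9, and on the right MRPL32 is the only gene that holds one.

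Of the 17 genes centred within 10 kb of the centromere of III, 6 held a negative bin (35.3%), 5 of 10 on the left and 1 of 7 on the right. Over all nuclear genes the share was 2.74%, and over the genes centred within 10 kb of the other centromeres it was 64.5%. By number of negative bins within 30 kb, III ranked second lowest of 16 with 107, against 105 on I and a median of 366 on the other chromosomes. Its right side ranked lowest with 13 bins, against 18 on I and a median of 171, and its reach of 4.30 kb on that side was the shortest, against 5.14 kb on I and a median of 12.4 kb. The left side, with 94 bins, ranked as the third lowest, with 79 on VI the fewest. The smaller side held 12.1% of the negative bins of III, against 17.1% to 48.1% on the other chromosomes. In size, the median of negative bins within 10 kb was -0.62 on III and ran from -0.94 on XIV to -0.49 on IX. The lowest bin of III was the one nearest to 0 among the lowest bins of all 16 chromosomes. These are ranks of a single chromosome, with no test. The median SE of negative bins within 10 kb was 0.20 on III and 0.18 on the other chromosomes.

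**Figure D3:**
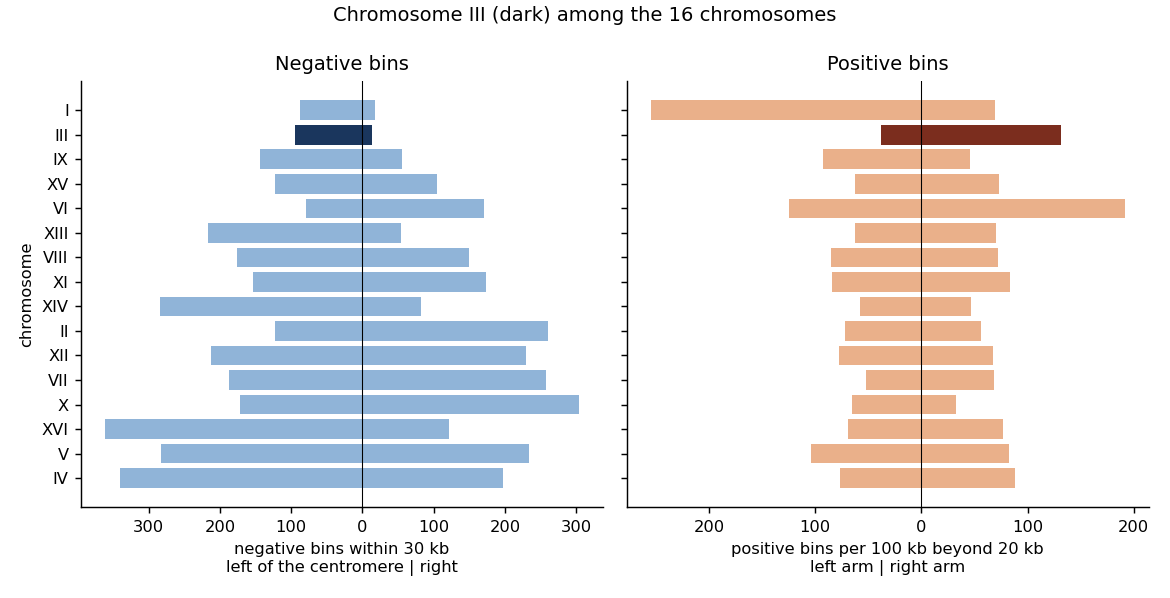
Negative bins within 30 kb of the centromere (left panel) and positive bins per 100 kb of arm beyond 20 kb from it (right panel), for the left and right arm of each chromosome, ordered by the number of negative bins. Chromosome III (dark) has the shortest right bar for negative bins, 13, and 38.0 positive bins per 100 kb on its left against 131 on its right arm.

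In the gap that holds the centromere, the listed bins were positive. The sequence between YCL001W-B and YCR001W held 8 positive and 0 negative bins, all left of its middle, from 114541 to 114720. Their values in the authors' deposited table ran from 0.45 to 0.50 and differed among themselves by less than their median SE of 0.15. The strongest call was also the one nearest the middle, at 0.45 in the authors' deposited table (114701 to 114720; SE 0.13, adjusted p 0.0187), and none met a rate of 0.01. Of the 16 gaps, 10 held such bins, and III had the third most, after 15 on IV and 13 on XIII. Its gap, at 1660 bp, was also longer than those of IV (943 bp) and XIII (1218 bp). The longest gap, on V (2541 bp), held 2 such bins, as did that of II (1473 bp). Where the centromere lies in the gap of III was not resolved, so the side of it on which these 8 bins lie is unknown.

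Along the arms, positive bins were fewer on the left than on the outer right. Left of the middle of the gap lay 44 positive bins. Of these, 8 were those of the gap, whose side of the centromere was not resolved. To the right lay 241, or 84.6% of all on 63.7% of the length. From 20 kb outward the left arm had 38.0 positive bins per 100 kb, rank 2 of 32 chromosome arms from the lowest, and the right arm 131, rank 30. An uneven pair of arms was not particular to III, since I had 255 on its left and 68.9 on its right arm. On VI the values were 125 and 192. Over whole chromosomes III had 90.1 positive bins per 100 kb, after 166 on I and 131 on VI. At matched distances of 20 to 75 kb both arms of III had similar numbers, with 18 bins on the left and 23 on the right. From 75 kb to 115 kb, where the left arm ends, 18 bins in 4 groups lay on the left and 87 in 9 groups on the right, or 45.2 and 218 per 100 kb. Of these 87, 59 belonged to the 2 groups at CTR86, and without them 28 were left, or 70.3 per 100 kb. The right arm beyond 20 kb then had 98.6 per 100 kb, rank 28 of 32, with no group left out of the other arms. The whole right arm beyond 75 kb held 215 positive bins, 75.4% of those of III on 40.0% of its length. The limit of 75 kb was chosen after the values were seen. The median of the positive bins was 0.61 on the left and 0.57 on the right, with median SEs of 0.18 and 0.17. Only bins that passed the threshold enter these medians, so they cannot show whether size followed number.

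The left arm had long stretches without a listed bin, the longest 25.1 kb from HIS4 to SUP53 (65661 to 90800) with 12 annotated genes, and the next on that arm 20.6 kb (17081 to 37640). Its main site was SUP53, a leucine tRNA gene just outside the Ty open reading frames YCL019W and YCL020W. A run of 13 bins covered the tRNA gene and its flanks (90801 to 91060), beginning at 0.55 and ending at 0.58 in the authors' deposited table. It peaked on the side of LEU2, the gene for isopropylmalate dehydrogenase in leucine synthesis, at 0.80 in the authors' deposited table (90981 to 91000; SE 0.18, adjusted p 0.000708). LEU2 itself held none, and a bin past its 3′ end, toward NFS1, stood at 0.42 in the authors' deposited table (92521 to 92540; SE 0.14, adjusted p 0.0426). Reads of repeated tRNA and Ty sequence cannot always be placed, and their part in these values was not tested.

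The other left-arm sites were small. Between APA1, for diadenosine tetraphosphate phosphorylase, and YCL049C, 4 bins peaked at 0.80 in the authors' deposited table (39541 to 39560; SE 0.20, adjusted p 0.00235). On the other side of APA1, toward LRE1, 5 bins in convergent sequence had a median of 0.55. Between POF1 and EMC1 lay 2 bins, and between CHA1, for the serine deaminase, and VAC17, for the vacuolar inheritance adaptor of myosin, 2 with a median of 0.73. Single bins lay between ATG22 and SRO9 and between RRP7 and HIS4, the histidine synthesis gene beside a well-studied recombination hotspot, with 0.55 and 0.49 in the authors' deposited table. HIS4 held no listed bin.

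On the right arm, the densest site of the chromosome lay at the convergent genes THR4 and CTR86. THR4 encodes threonine synthase and CTR86 an essential protein. A run of 36 touching bins (218161 to 218880) began in the 3′ end of THR4, crossed the 134 bp between the genes, all 7 of whose bins were listed, and went on into the 3′ part of CTR86. Its median was 0.55. Its peak was the bin with the smallest adjusted p on III, 0.75 in the authors' deposited table (SE 0.15, adjusted p 0.000118). The 6 bins that touched THR4 all lay past 78.5% of its length and had a median of 0.63. CTR86 was touched by 35 bins, of which 74.3% lay nearer its 3′ than its 5′ end. A separate group of 22 bins followed at the other end of CTR86 and in the tandem gap toward PWP2, a gene of ribosome synthesis, with a median of 0.56 (219841 to 220400). Values over the site varied from 0.43 to 0.75 in the authors' deposited table.

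Other right-arm groups were shorter. Nearest the centromere, single bins stood at 0.63 beside the tRNA gene YNCC0005W (127961 to 127980; SE 0.21, adjusted p 0.0342), and at 0.44 in SAT4, a kinase gene, and 0.46 just past it, in the authors' deposited table. No bin was then listed for 24.3 kb (130521 to 154800), which takes in PGK1, the phosphoglycerate kinase gene. In the 2513 bp between the tRNA gene YNCC0010C and FEN2, for the pantothenate transporter, 15 bins had a median of 0.50, 13 of them in a run (169741 to 170000). Between FEN2 and RIM1, for a single-stranded DNA-binding protein of mitochondria, 4 bins peaked at 0.78 in the authors' deposited table (172601 to 172620; SE 0.22, adjusted p 0.0108). ELO2, for a fatty acid elongase, held 6 bins with a median of 0.50, between 22.8% and 51.6% of its length.

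Farther out, 9 bins lay at the convergent ends of RAD18, the ubiquitin ligase gene of post-replication repair, and SED4, with a median of 0.56. At SUP61, a serine tRNA gene, and its flank toward TVS1, 8 bins peaked at 0.78 in the authors' deposited table (227861 to 227880; SE 0.21, adjusted p 0.00836). Between SED4 and ATG15, for a vacuolar lipase, 3 bins peaked at 0.76 in the authors' deposited table (236941 to 236960; SE 0.24, adjusted p 0.0256). ERS1 held 4 bins in the first 13.5% of its length, with a median of 0.52. Around TRX3, for the mitochondrial thioredoxin, and TUP1, for the general corepressor, lay a group of 15 bins with a median of 0.53. TRX3 held 5 of them, all past 76.2% of its length with a median of 0.51, and TUP1 2, at its very 3′ end. Between CDC50, for a lipid flippase subunit, and OCA4, 7 bins in convergent sequence had a median of 0.66. On the other side of OCA4, toward YCR095W-A, 8 bins reached 0.84 in the authors' deposited table (289401 to 289420; SE 0.22, adjusted p 0.00594), the highest value of the right arm.

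The mating-type loci differed in their surroundings. None of the 6 cassette genes held a listed bin, but of all nuclear genes only 9.17% held a positive and 2.74% a negative one. In this build HML carries HMLALPHA2 and HMLALPHA1, MAT carries MATALPHA2 and MATALPHA1, and HMR carries HMRA2 and HMRA1, the regulators that set mating type, of which those at HML and HMR are silenced. Within 5 kb of the HMR genes lay 35 positive bins, 19 on the left and 16 on the right, with a median of 0.65. The nearest ones were 379 bp from HMRA2 and 460 bp from HMRA1. On the left side, 8 bins (292641 to 292800) had a median of 0.62. On the right side, 4 bins toward the tRNA gene YNCC0014W started at 0.76 in the authors' deposited table (294781 to 294800; SE 0.21, adjusted p 0.00885), and 12 more lay between that gene and GIT1, for a glycerophosphoinositol transporter, with a median of 0.68 (296661 to 296900). Bins were thus on both sides of the silent cassette and of the tRNA gene beside it.

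MAT had 4 bins within 5 kb and HML 2, and neither had any within 2 kb, where HMR had 15. Next to MAT, BUD5, for a bud-site selection factor, held none, but a bin 341 bp from it, toward PHO87, stood at 0.56 in the authors' deposited table. TAF2, for a subunit of the general transcription factor TFIID, held none either. Between it and SUT035, 3 bins peaked at 0.77 in the authors' deposited table (205521 to 205540; SE 0.24, adjusted p 0.0250). Near HML the only ones were the 2 between CHA1 and VAC17, 3232 bp from HMLALPHA1. KAR4 and SPB1, which flank the recombination enhancer that steers the choice of donor in mating-type switching, held none, and their nearest bins were 8705 and 3667 bp away. The 3 loci share sequence, how such reads were filtered is unknown here, and their part in these values was not tested.

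**Figure D4:**
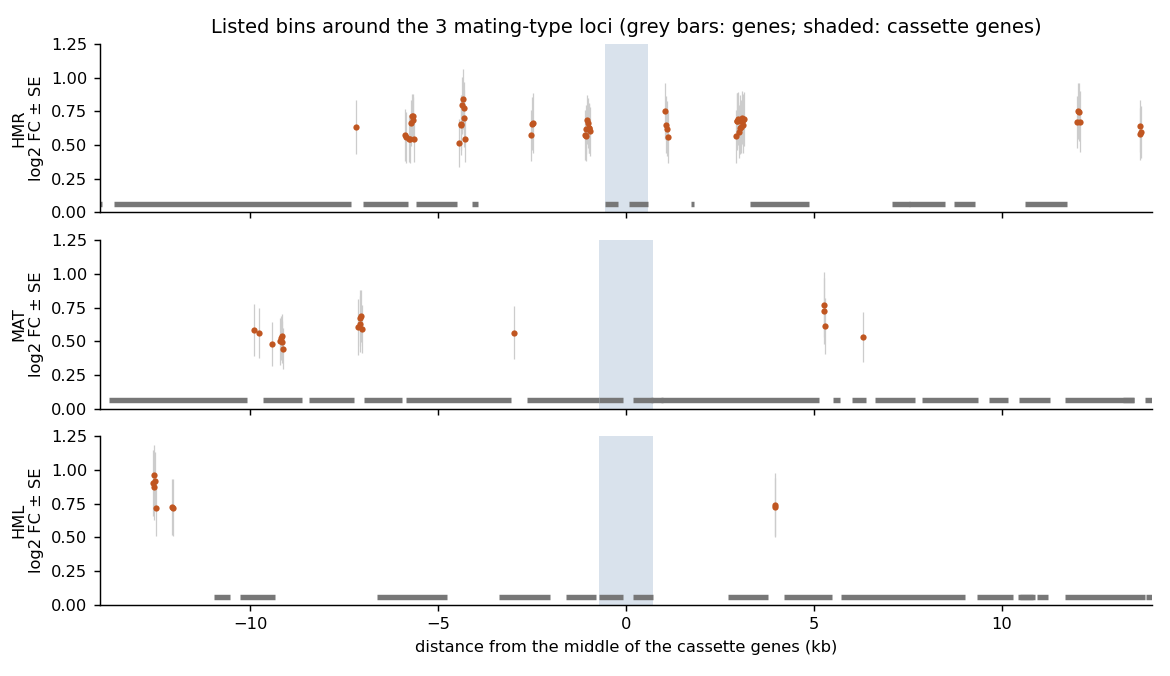
Log2 fold change with implied SE of listed bins within 14 kb of the middle of the cassette genes at HMR, MAT and HML, by distance in kb, with annotated genes as grey bars and the cassette genes shaded. HMR has 15 bins within 2 kb of its genes, and MAT and HML have 0.

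Both chromosome ends were positive. The first listed bins, 501 to 1060, left of the pseudogene YCL075W, were 7 with a median of 0.88, the highest median of any group on III. They held the highest single value, 0.97 in the authors' deposited table (541 to 560; SE 0.22, adjusted p 0.000893), and the first of them stood at 0.90 in the authors' deposited table. At the right end, 30 bins from 315541 to 316400 had a lower median of 0.47, and the last of them stood at 0.69 in the authors' deposited table (316381 to 316400; SE 0.17, adjusted p 0.00249). Their longest run was 9 bins (315721 to 315900) between AAD3 and YCR108C, an open reading frame that itself held 8 bins with a median of 0.46. The medians of the left and right end thus lay farther apart than their median SEs of 0.21 and 0.15. Between YCR102C and PAU3, of the seripauperin family, 7 bins on the right reached 0.75 in the authors' deposited table (305761 to 305780; SE 0.21, adjusted p 0.00909). The 7 listed genes of the ends, VBA3, GEX1, GIT1, PAU3, ADH7, RDS1 and AAD3, held none. Over all nuclear genes only 9.17% held a positive bin. Ends carry repeated families, and the part of misplaced reads was not tested.

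By gene position, positive bins lay outside genes more often than sequence does, and negative ones inside. Gene bodies held 28.8% of the 285 positive bins (95% exact binomial interval 23.6% to 34.4%, for counting error only, with neighbouring bins taken as independent), against 70.3% of the sequence of III. Convergent intergenic sequence held 24.2% (19.4% to 29.6%) against 6.35%, tandem 30.5% (25.2% to 36.2%) against 14.5%, and divergent 10.9% (7.51% to 15.1%) against 8.19%. On the other chromosomes gene bodies held 40.8% and convergent sequence 24.8%, against 3.91% of their sequence. Convergent sequence was thus more plentiful on III but held a like share of its positive bins, 3.81 times its share of sequence on III and 6.35 times elsewhere. Taking each intergenic stretch once, 10 of 43 convergent ones on III held a positive bin (23.3%; 22.3% elsewhere), 24 of 89 tandem ones (27.0%; 16.0% elsewhere) and 8 of 44 divergent ones (18.2%; 10.6% elsewhere). Of the convergent ones, 2 of 18 on the left arm and 8 of 25 on the right held one. Convergent stretches with a positive bin had a median length of 353.5 bp, and those without 168 bp. Long ones of 3381 and 1492 bp near HMR held 11 and 12 bins, and 1 of 1015 bp at the right end held 14. No test of these differences was made. The gene position of the bins that entered the adjustment is unknown, so listed bins could be set only against all sequence, tested or not.

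Of the 10 highest bins of III, taken at most 1 per 5 kb, 5 were in tandem and 4 in divergent sequence, 1 at an end, and 0 in convergent sequence or genes. The median of positive bins was 0.67 in divergent sequence, 0.58 in tandem, 0.58 in convergent and 0.53 in gene bodies, with median SEs of 0.21, 0.18, 0.17 and 0.16. Values and SEs thus had the same order, and a threshold on the false discovery rate admits only larger changes where the SE is larger. Medians elsewhere were 0.64, 0.60, 0.53 and 0.53 in the same classes.

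The 107 negative bins formed 7 groups, and 39 of them lay in PGS1. In gene bodies lay 102 (95.3%, exact interval 89.4% to 98.5%, again with neighbouring bins taken as independent). Gene bodies make up 57.1% of the sequence within 12 kb of the centromere of III. On the other chromosomes the share within 12 kb was 76.0% of bins against 74.0% of sequence. Tandem sequence, 29.9% of that window on III and in part the centromere gap itself, held 2 negative bins. The window of 12 kb was chosen after the values were seen, and here too the gene position of the tested bins is unknown.

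**Figure D5:**
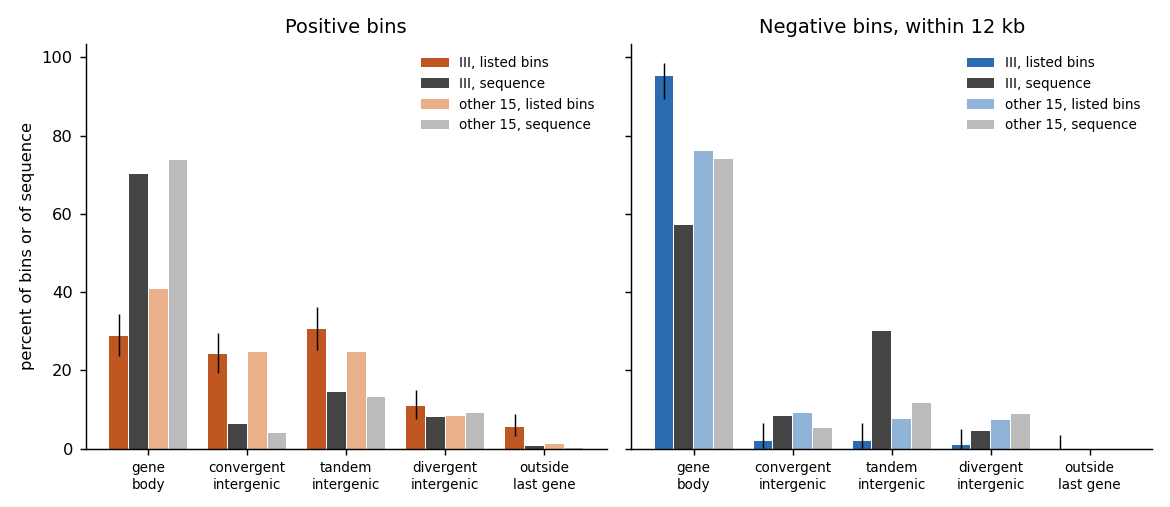
Percent of listed bins and percent of sequence by gene position, for positive bins (left) and negative bins within 12 kb of a centromere (right), on III and on the other 15 chromosomes, with 95% exact binomial intervals for III. Gene bodies hold 28.8% of positive and 95.3% of negative bins of III. The intervals take neighbouring bins as independent.

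Inside genes, 53 of 82 positive bins (64.6%) lay nearer the 3′ than the 5′ end of the gene, against 84.5% elsewhere, and 28 of 48 (58.3%) without CTR86. Of 15 protein-coding genes touched by a positive bin, 10 had most of these bins nearer the 3′ end, among them THR4, RAD18, PAT1, TRX3, TUP1, MSH3 and CDC50, and 5 did not, HSP30, ELO2, ERS1, YCR043C and YCR108C. Positive bins lay a median of 326.5 bp from the nearest 3′ end of a protein-coding gene and 467.5 bp from the nearest 5′ end, against 620.5 bp and 592.5 bp over every bin position of III. For positive bins elsewhere the medians were 218.5 bp and 952.5 bp. For the negative bins of III, all near the centromere, the medians were 365.5 bp and 410.5 bp. Their only baseline was every bin position of the whole chromosome, so whether they differ from their own surroundings was not tested. Inside genes the negative bins had no lean to the 3′ end, with 51 of 102 nearer it.

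In the gene lists, few members held a bin. Of all 185 genes on III, 17 held a positive bin (9.19%; 9.17% of all nuclear genes) and 7 a negative one. Of 10 genes for cohesion, recombination and meiosis, RAD18 and MSH3, a mismatch repair gene, held positive bins, 2 and 1 in number, and the other 8 held none. Those were DCC1, whose product acts in sister-chromatid cohesion, MRC1, of the replication checkpoint, CSM1, of the monopolin complex, SPS22, POL4, ABP1, BUD23 and ARE1. The intergenic sequence between BUD23 and ARE1, a known meiotic recombination hotspot, had no listed bin, and the bins nearest to these genes were over 4 kb away, at 4158 and 4140 bp. Of 5 amino acid genes, ILV6 held negative and THR4 positive bins, and HIS4, LEU2 and CHA1 none, although each had a positive bin within 274 bp. GLK1, PGK1 and CIT2, for glucokinase, phosphoglycerate kinase and citrate synthase, held none. Of the 10 tRNA genes, SUP53 and SUP61 held positive bins, with 10.5% of tRNA genes in the series doing so, and 3 had one within 500 bp, against 26.0% of tRNA genes elsewhere. None of the 4 snoRNA genes held a bin. For genes with no bin in the table, a lack of testing and a failure to pass cannot be told apart.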

How the data were processed

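The table holds the authors' own comparison of 3 ctf19-9A and 3 WT cultures over bins of 20 bp. Per the file headers, the authors deposited for each bin a p-value, its false discovery rate, and the log2 fold change before and after shrinkage. Only bins with a rate under 0.05 are listed. Bowtie2 2.5.0, DESeq2, deepTools 3.4.3 and FastQC 0.11.9 and the builds R64 and sacCer3 are named in the submitters' processing notes, with settings, read filters and bins tested not given in the sources used here. Depth per sample is unknown.

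From these values, with Python 3.11.15, pandas 2.3.3 and SciPy 1.17.1, SEs were computed as the size of the log2 fold change over the normal deviate of the two-sided p-value. The number of bins adjusted follows from the last bin, if the adjustment was that of Benjamini and Hochberg. Bins were placed by their middle base in RefSeq genes of R64, and intergenic sequence was classed by the strands of its flanking genes. Groups join bins of 1 sign whose starts are at most 500 bp apart, and runs join touching bins. The last annotated or listed base stood for the chromosome end. The steps were tested on simulated data.

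The genes and bins named were the nearest to the centromere, the 6 lowest (3 existed) and 10 highest with at most 1 per 5 kb, the 5 longest runs and 8 genes with most bins of each sign (7 existed for negative), the first and last bin, and the members of the gene lists. One listed symbol, CTF86, matched no gene. Further genes with bins are named after their values were seen. The members and lists were chosen with earlier results of these data known. Genome sequence, origins and repeat annotation were not used here.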

Additional observations from a re-analysis of the deposited data

How the results depend on the processing

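At a false discovery rate under 0.01 the negative bins of III fell to 16 and the positive ones to 63, with 16 negative bins left of the centromere and 0 on the right. The rank of III by fewest negative bins then moved to 1, from rank 2. Of the positive bins, 6.35% then lay in divergent sequence. With a minimum log2 size of 1, 0 bins of either sign were left, and with 0.6, 55 negative and 117 positive. With 1 value per run of touching bins, positive runs lay in gene bodies for 20.5%, in convergent sequence for 19.2%, in tandem for 39.7% and in divergent for 15.4%. Without the 2 groups at CTR86, chosen after seeing the data, the positive bins from 75 kb to 115 kb on the right moved to 28, from 87. The other 30 comparisons moved by less than the median SE of a single bin, the binomial interval or 1.5 times. No median turned sign, but on the arms none could, since no negative bin was listed there. Nor could either edge of the gap alter the left and right counts, since no negative bin lay in the gap. The 30 comparisons cover the shrunken values, the mean, other windows and arm limits, either edge of the centromere gap and other gene placements. They also cover 2 alternatives chosen after seeing the data, without the largest positive group (248 bins) and without the outer 20 kb of each arm (227 bins). No paired analysis was possible because the table holds no values per sample, and leaving out a replicate was not run for the same reason. Calls rest on the authors' threshold, so medians describe only bins that passed and are larger in size than those of all bins would be, and depth limits which bins could pass by an amount that is unknown.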
